A study of Homo sapiens with 24 samples.

Results

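The response of HepG2 cells to interferon gamma (IFNγ) was compared with and without the BET inhibitor ABBV-075, as the interaction of both treatments. HepG2 is a human hepatocellular carcinoma cell line. The comparison used 12 of the 24 libraries of the series, 3 in each of 4 groups. These received DMSO, 50 nM ABBV-075, IFNγ, or IFNγ together with 50 nM ABBV-075. The study's methods give 12 h for ABBV-075 and list DMSO with the 24 h treatments. The dose and time of IFNγ, and the time of ABBV-075 in the combination, are not given in the sources used here. Equal treatment times in the 4 groups can therefore not be assumed. The interaction of a gene is its IFNγ response with ABBV-075 minus its IFNγ response without it, on the log2 scale. A value of 0 means that the fold changes of the 2 treatments multiply, which is called additive on the log2 scale here. A negative value marks a gene held down in the combination, and a positive value marks a gene boosted in it, each relative to multiplied fold changes. A boosted gene can still have a lower level in the combination than with IFNγ alone. Of 26475 gene symbols in the files, 11530 had enough counts to be tested.

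IFNγ binds a receptor that activates the kinases JAK1 and JAK2, which phosphorylate STAT proteins. STAT dimers bind GAS elements in DNA and raise a first wave of genes, among them IRF1, and IRF1 and complexes that hold IRF9 act on ISRE elements. The induced genes serve antigen presentation, antiviral defence, complement and the control of cytokines. BET proteins bind acetylated histones and help RNA polymerase to elongate, and inhibitors such as ABBV-075 displace them from chromatin.

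The interaction of 4 genes passed an adjusted p of 0.05, which is 0.0347% of the genes tested. IL18BP and C1S were held down, and PARP14 and TAP2 were boosted. IL18BP encodes a secreted protein that binds and neutralizes interleukin 18, C1S a protease of the first complement component, PARP14 an ADP-ribosyltransferase of the interferon response, and TAP2 a subunit of the transporter that loads peptides on MHC class I. All 4 were raised at least 4.53-fold by IFNγ alone. Only IL18BP and C1S also passed the size threshold of 1.5 on the log2 scale, which is 0.0173% of the genes tested, and no gene passed it in the positive direction (241 had a positive interaction at an unadjusted p under 0.05, and 1 gene passed with DESeq2). By p alone DESeq2 passed 6 negative and 7 positive genes, among them the 4 and C1R, C4BPA, IRF9 and APOL2. As a background for the single effects, at an adjusted p of 0.05 with no size threshold, ABBV-075 lowered 22.3% and raised 22.9% of the genes tested without IFNγ and 27.4% and 24.3% with it, and IFNγ raised 1.72% without ABBV-075 and 1.58% with it. In bulk RNA, a change in every cell and a change in a part of the cells cannot be told apart.

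Short sequences of the promoters are shown first. An ISRE core was found in 3 of the 4 genes, and C1S had no promoter window to search. The ISRE core was searched as GAAA, NN and GAAA in a row, where N is any base, and the GAS element as TTCNNNGAA, on both strands, in the RefSeq promoter windows of GRCh38.p14 (250 bases before to 50 bases after each start). In the 30-base stretches below, written on the strand of the gene, capitals mark the ISRE core:
IL18BP, chr11:71999540-71999569, plus strand: gttaaaaagtGAAAGTGAAAtagagggtcg
PARP14, chr3:122680800-122680829, plus strand: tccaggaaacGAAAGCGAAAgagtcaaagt
TAP2, chr6:32838778-32838807, minus strand: ctggggaagcGAAAGCGAAAgctgcccgag

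The core began 67 bases before the start in 1 of the 4 windows of IL18BP, 29 bases before it in PARP14 and 58 bases before it in TAP2. PARP14 and TAP2 carry the same 10 letters, GAAAGCGAAA, and IL18BP carries GAAAGTGAAA. The held-down IL18BP and the boosted PARP14 and TAP2 therefore all hold the core. A GAS match was also found in 1 window of IL18BP and in that of PARP14, and none in that of TAP2. The ISRE core was present in 3.57% of all 35116 windows and the GAS letters in 7.66%, which is 4.38% and 9.38% of the genes with a window. Among 87 genes raised by IFNγ, 54 had a window, and 29 of these (53.7%) held the ISRE core and 16 (29.6%) the GAS letters. C1S has no window in the table. A match is a run of letters in a window, and binding was not measured.

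IL18BP was the gene held down most among the 4. The gene lies at chr11:71998613-72007315 on the plus strand (GENCODE v44, GRCh38). In CPM (counts scaled to library size), its level was 4.33, 3.82 and 6.04 in the 3 DMSO libraries and 6.44, 8.56 and 9.40 in the ABBV-075 libraries. IFNγ alone gave 27.3, 38.2 and 31.5 CPM, and IFNγ with ABBV-075 gave 6.38, 10.0 and 9.59 CPM. The combination overlapped with ABBV-075 alone and lay below every IFNγ library. IFNγ raised IL18BP 6.79-fold without ABBV-075 and 1.07-fold with it, and the interaction was -2.67 on the log2 scale (SE 0.35, 95% interval -3.40 to -1.94, adjusted p = 0.00131 by the quasi-likelihood test of edgeR, with Benjamini-Hochberg adjustment here and below). The level expected from multiplied fold changes was 55.6 CPM, and the measured mean was 8.66 ± 1.99 CPM (SD, n = 3). ABBV-075 itself raised IL18BP without IFNγ (log2 0.76, SE 0.27, adjusted p = 0.0292) and lowered it with IFNγ (log2 -1.91, SE 0.21, adjusted p = 6.42e-07). The first of these did not pass when both strands were counted (adjusted p = 0.0833) or when DMSO replicate 1 or 2 or ABBV-075 replicate 2 or 3 was left out (adjusted p = 0.0792, 0.108, 0.0735 and 0.0733). The counts behind these levels were 16 to 31 per library in the DMSO and ABBV-075 groups and 99 to 128 with IFNγ alone.

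C1S was held down too, from a lower start, since ABBV-075 alone lowered it (log2 -1.18, SE 0.16, adjusted p = 9.22e-06) where it raised IL18BP. It lies at chr12:6988259-7071032 on the plus strand. Its level was 25.7, 25.6 and 27.1 CPM with DMSO, and 9.54, 13.7 and 11.5 CPM with ABBV-075. IFNγ alone gave 138, 122 and 122 CPM, and the combination gave 17.9, 16.0 and 19.5 CPM. The combination was thus above ABBV-075 alone but below every DMSO library, with no overlap between any of the groups. IFNγ raised C1S 4.86-fold without ABBV-075, and with it the IFNγ response was 1.54-fold and did not pass (adjusted p = 0.0585). The interaction was -1.66 (SE 0.22, 95% interval -2.11 to -1.21, adjusted p = 0.00131). Without ABBV-075 replicate 2, and with GC correction, the remaining response did pass (adjusted p = 0.0463 and 0.00637), so that C1S kept a part of its IFNγ response in those fits.

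PARP14 was boosted. It lies at chr3:122680839-122730840 on the plus strand. Its level was 29.0, 24.5 and 25.4 CPM with DMSO and fell to 15.7, 15.7 and 12.7 CPM with ABBV-075. IFNγ alone gave 182, 194 and 178 CPM, and the combination gave 264, 234 and 236 CPM. All 3 combination libraries were above all IFNγ libraries, although ABBV-075 alone lay below DMSO. The IFNγ response was 7.04-fold without ABBV-075 and 16.5-fold with it, and the interaction was 1.23 (SE 0.17, 95% interval 0.87 to 1.59, adjusted p = 0.00271). ABBV-075 changed sign with IFNγ: it lowered PARP14 without IFNγ (log2 -0.82, adjusted p = 0.000112) and raised it with IFNγ (log2 0.41, adjusted p = 0.00236).

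TAP2 lies in the MHC region at chr6:32821833-32838739 on the minus strand. Its level was 61.2, 57.4 and 59.2 CPM with DMSO and 21.5, 27.7 and 26.7 CPM with ABBV-075. IFNγ alone gave 246, 281 and 279 CPM, and the combination gave 208, 223 and 237 CPM. The groups did not overlap, and the combination was below IFNγ alone. The fold response to IFNγ was larger with ABBV-075, 8.83-fold against 4.53-fold, since the level without IFNγ was lower, and the interaction was 0.96 (SE 0.16, 95% interval 0.63 to 1.30, adjusted p = 0.0223). This call was the least firm of the 4. Without any 1 of the 3 DMSO or the 3 IFNγ libraries, or of replicates 2 and 3 of the combination, it did not pass (adjusted p between 0.0551 and 0.128), while its size stayed between 0.90 and 0.99.

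**Figure D1:**
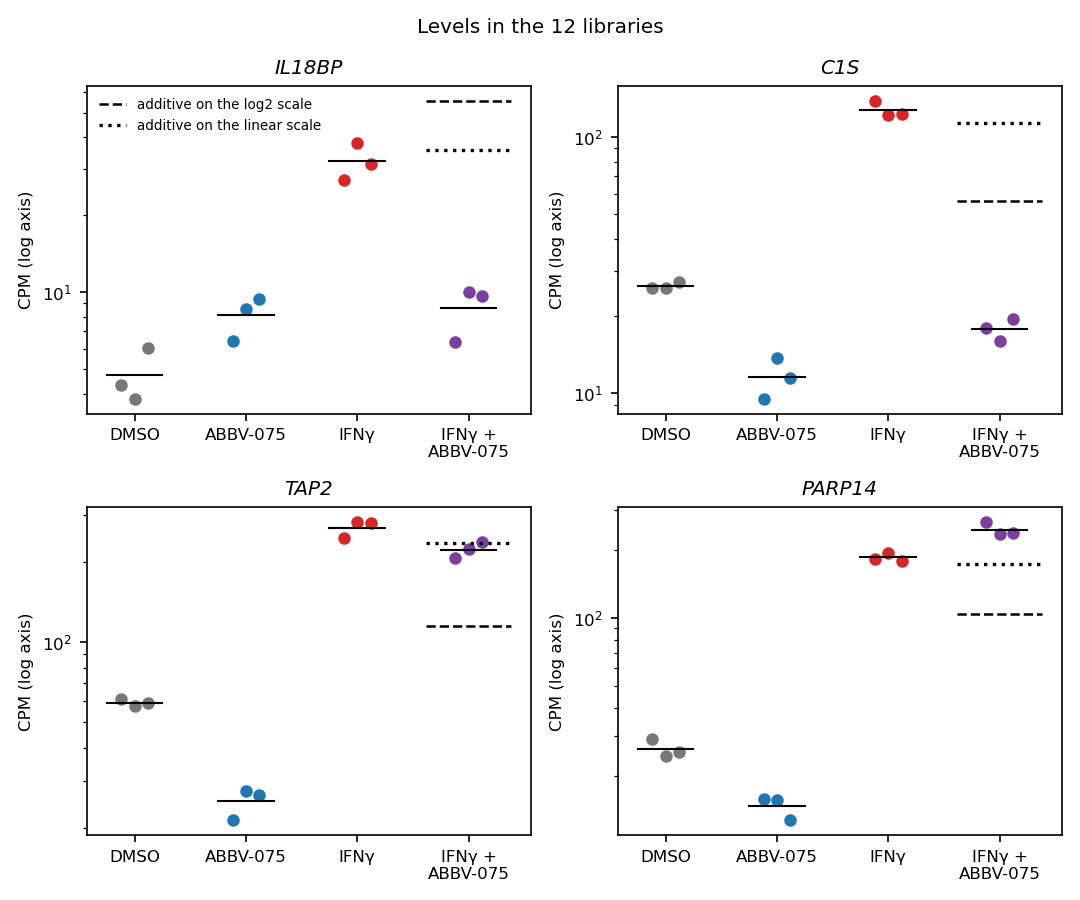
CPM (log axis) of the 4 genes in each of the 12 libraries, by group; each point is a library and each solid bar the mean of 3. The dashed line is the level expected if fold changes multiply and the dotted line the level expected if differences in CPM add; IL18BP and C1S lie below both lines, PARP14 above both, and TAP2 above the dashed line only.

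The scale of additivity mattered for 1 of the 4. On the linear CPM scale, the combination was 27.1 CPM below the sum of the single effects for IL18BP and 94.8 CPM below it for C1S. It was 71.4 CPM above that sum for PARP14. For TAP2, in contrast, the mean of the combination was 222 CPM and the linear sum was 235 CPM, so the direction turned. For TAP2, boosted thus describes the fold response and not the level reached.

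Most genes raised by IFNγ alone were also raised by it in the presence of ABBV-075. IFNγ raised 91 genes by the size and p thresholds without ABBV-075 (0.789% of the genes tested) and 85 with it (0.737%). Of these, 65 were in both lists, which is 71.4% of the first and 76.5% of the second. Taking the mean of both responses, 87 genes (0.755%) were raised, a list chosen after the data were seen. In 30 of them at least 1 group had 3 counts or fewer in every library, so no fold change is given for those. Over all 87 the interaction was below 0 for 38 and above 0 for 49, with a median of 0.15, and over the other 57 it was below 0 for 22 and above 0 for 35, with a median of 0.28, against -0.03 over all genes tested. The levels mostly fell even so. With IFNγ present, the median effect of ABBV-075 over the 87 was -0.89 on the log2 scale, against -0.03 over all genes tested. Without IFNγ it was -1.07, against 0.02. The sign depends on how the list is drawn: over the 91 genes raised without ABBV-075 it was below 0 for 55 and above 0 for 36 (median -0.21), and over the 85 raised with it, below 0 for 30 and above 0 for 55 (median 0.52). Each of these lists uses 1 of the 2 responses that make up the interaction, so nothing is read from their direction. At an unadjusted p under 0.05, 7 of the 57 were lower (12.3%) and 15 higher (26.3%), against 4.63% and 2.09% of all genes tested. The 95% interval lay within 2-fold in either direction for 23 of the 57. IL18BP and C1S are not among the 57, since their small response with ABBV-075 takes their mean response under the threshold. A list by the mean response can thus lose genes that are strongly held down and keep boosted ones. The median also moved from 0.15 to 0.28 when genes at the floor were left out. For these reasons nothing is read from the direction of the 87 or the 57 either.

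**Figure D2:**
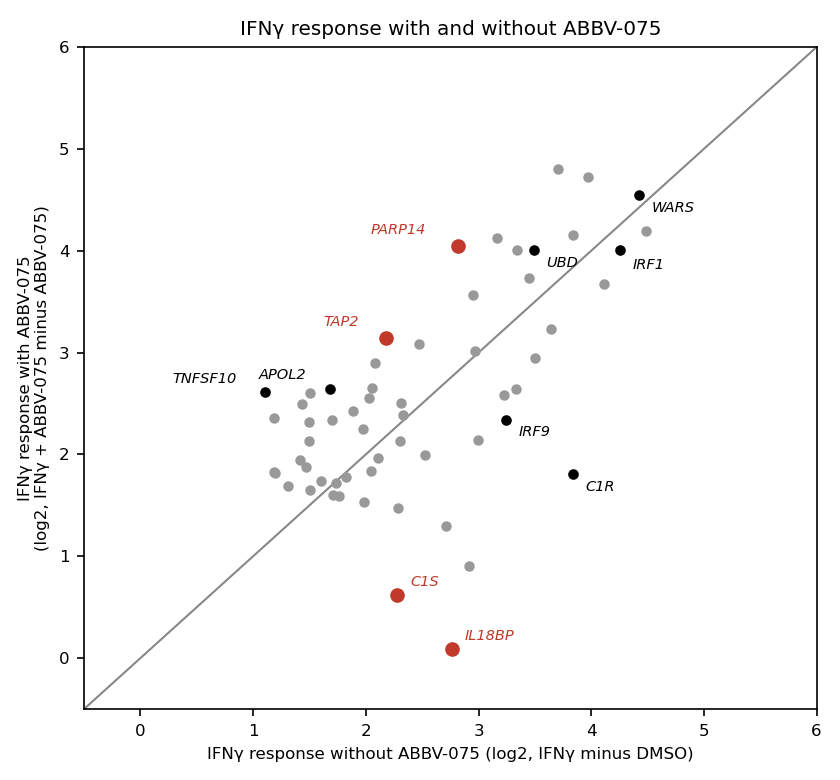
IFNγ response without ABBV-075 (x axis, log2) against the response with it (y axis, log2) for the 57 IFNγ-raised genes with no group at the floor, with the 4 genes that passed in red (IL18BP and C1S were added) and other named genes in black; the line marks equal responses. IL18BP (2.76 and 0.09) and C1S (2.28 and 0.62) lie far below the line, and PARP14 (2.82 and 4.05) and TAP2 (2.18 and 3.14) above it.

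Among the complement genes, 18 of 27 were tested, and 13 of them had a negative interaction and 5 a positive one, with a median of -0.23. C1S was the member that passed. Over all genes tested, 6322 were below 0 and 5208 above, with a median of -0.03, which is the background for this list and those below. C1R, the partner protease of C1S in the C1 complex and its neighbour on chromosome 12, had 3.52, 5.17 and 5.56 CPM with DMSO, 1.67, 2.57 and 2.43 CPM with ABBV-075, 66.8, 66.8 and 72.8 CPM with IFNγ, and 9.81, 5.68 and 7.49 CPM with both. The combination was far below IFNγ alone, but the interaction did not pass (-2.03, SE 0.41, 95% interval -2.89 to -1.17, adjusted p = 0.108). It rested on 7 to 23 counts per library in the groups without IFNγ. It passed with DESeq2 (adjusted p = 0.0134) and in 4 further alternatives of 21. C4BPA, which encodes a chain of the inhibitor C4b-binding protein, had an interaction of -1.07 (SE 0.21, adjusted p = 0.101). IFNγ alone raised it from 45.1 to 73.1 CPM, and the combination, at 24.5 CPM, was below DMSO. C3, the central complement component, and C2, a component of the classical C3 convertase, had values of -0.70 and -0.63 and did not pass. The values of the complement regulators CFI, CD46, CD55 and CD59 lay between -0.13 and 0.11.

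Among the interferon-linked PARP and ubiquitin-like genes, 10 of 11 were tested, and 7 were above 0 and 3 below, with a median of 0.24. PARP14 was the member that passed. PARP10, another ADP-ribosyltransferase, had 18.4, 19.6 and 21.0 CPM with DMSO, 5.25, 8.56 and 8.19 CPM with ABBV-075, 51.6, 51.6 and 56.5 CPM with IFNγ and 35.3, 44.4 and 42.9 CPM with both. Like TAP2, it was below its level with IFNγ alone, and its interaction of 1.06 (SE 0.24, adjusted p = 0.208) did not pass. PARP9 and DTX3L, which lie near PARP14 on chromosome 3 and whose proteins form a complex, had interactions of 0.20 (95% interval -0.27 to 0.66) and 0.28 (95% interval -0.13 to 0.69). Both reached a lower mean level in the combination (60.7 and 97.2 CPM) than with IFNγ alone (119 and 148 CPM), whereas PARP14 reached a higher one. UBD, a ubiquitin-like modifier, had an interaction of 0.52 that did not pass (adjusted p = 0.609). Its mean level was 641 CPM with IFNγ and 273 CPM in the combination.

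Among the MHC class I and peptide-loading genes, 17 of 18 were tested, and 12 were below 0 and 5 above, with a median of -0.10. TAP2 alone passed. Its partner TAP1, with which it forms the peptide transporter, was raised by IFNγ from 65.1 to 708 CPM and reached 461 CPM in the combination, with an interaction of 0.29 (95% interval -0.06 to 0.64). The immunoproteasome subunits PSMB8 and PSMB9, encoded beside TAP1 and TAP2, had interactions of 0.60 (95% interval 0.02 to 1.19) and -0.29 (95% interval -0.97 to 0.39). HLA-E, a non-classical class I molecule, had -0.55 (adjusted p = 0.609). The interactions of HLA-B and HLA-C, classical class I molecules, were -0.24 and -0.16, and that of B2M, the class I light chain, was -0.07. CD74, the MHC class II invariant chain and the 1 tested member of the class II list, had 0.10.

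The signalling genes upstream showed values on both sides. Of 10 tested receptor, JAK, STAT and SOCS genes, 6 were below 0 and 4 above, and none passed in the edgeR fit of the report (3 negative and 1 positive at an unadjusted p under 0.05). At that unadjusted p, 4.63% of all genes tested were lower and 2.09% higher. STAT2, a subunit of the factor that binds ISRE elements, had -0.73 (95% interval -1.16 to -0.30, adjusted p = 0.500), and STAT3 -0.42 (95% interval -0.71 to -0.13, adjusted p = 0.573). STAT2 was at 155, 194 and 188 CPM with IFNγ and at 65.3, 74.1 and 67.8 CPM in the combination. The combination libraries of STAT2 were all below its IFNγ libraries. SOCS1, a feedback inhibitor of JAK kinases, had -0.78.

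Of 6 tested IRF family members and transactivators, 3 were below 0 and 3 above, and none passed in the edgeR fit of the report (1 negative and 1 positive at an unadjusted p under 0.05, against 4.63% and 2.09% of all genes tested), while IRF9 passed with DESeq2 (adjusted p = 0.0365). IRF9, the DNA-binding partner of STAT2, was at 170, 177 and 186 CPM with IFNγ and 94.7, 107 and 97.4 CPM in the combination, against 16.9 to 21.5 CPM in the 6 libraries without IFNγ. Its interaction was -0.91 (SE 0.18, 95% interval -1.28 to -0.53, adjusted p = 0.107). IRF1, the first-wave factor, was at 212, 228 and 254 CPM with IFNγ and at 216, 242 and 210 CPM in the combination. These groups overlapped, and the 95% interval of its interaction was -0.68 to 0.18. NLRC5, the transactivator of MHC class I genes, had 0.75 (adjusted p = 0.660).

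In the other lists IL18BP was the only member that passed. It belongs to the cytokine, chemokine and checkpoint list, in which 7 of 14 tested genes were below 0 and 7 above. Of the 9 tested GBP and APOL genes, 4 were below 0 and 5 above, and the apolipoprotein L genes APOL1, APOL2 and APOL6 had 0.64, 0.96 and 0.61 (adjusted p = 0.636, 0.108 and 0.310). The mean levels of APOL1, APOL2 and APOL6 were 110, 80.5 and 535 CPM with IFNγ and 32.9, 70.4 and 308 CPM in the combination. Of 34 tested antiviral genes, 19 were below 0 and 15 above, with a median of -0.12. At an unadjusted p under 0.05, 4 were lower and 5 higher, against 4.63% and 2.09% of all genes tested. IFIT1, which binds foreign RNA, was at 15.7, 11.6 and 9.56 CPM with IFNγ and at 31.9, 26.5 and 22.8 CPM with both, with an interaction of 1.09 that did not pass (adjusted p = 0.609). DDX58, the RNA sensor RIG-I, had 0.82 (adjusted p = 0.686). IFI27 went the other way, with means of 14.6 CPM with IFNγ and 4.52 CPM in the combination. It had 3 counts or fewer in every library without IFNγ, so no fold change is given. Its interaction did not pass (adjusted p = 0.666). Of 17 tested cell death genes, 8 were below 0 and 9 above, with a median of 0.08. TNFSF10, the death ligand TRAIL, had the most positive value among them, 1.51 (SE 0.47, adjusted p = 0.564), on 3 to 44 counts per library. CASP8, an initiator caspase, had 0.42 (adjusted p = 0.729).

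No gene of the metabolic, hepatocyte and BET lists passed in the edgeR fit of the report or with DESeq2. Of all genes tested, 6322 were below 0 and 5208 above. Of 10 tested interferon-linked metabolic genes, 4 were below 0 and 6 above; WARS, the tryptophanyl-tRNA synthetase, was induced from 51.8 to 1114 CPM and had an interaction of 0.12 (95% interval -0.27 to 0.52). NMI, a STAT interactor, had 0.96 (adjusted p = 0.719), TYMP, thymidine phosphorylase, -0.68 (adjusted p = 0.802) and ACSL5, an acyl-CoA synthetase, 0.42 (adjusted p = 0.609). Of 25 tested hepatocyte secreted proteins, 15 were below 0 and 10 above, with a median of -0.02, and 3 were lower and 0 higher at an unadjusted p under 0.05 (4.63% and 2.09% of all genes tested). FGA, the fibrinogen alpha chain, had -0.57, AHSG, fetuin A, -0.51, and ITIH3 -0.38, and none passed (adjusted p = 0.388, 0.657 and 0.739). Among the 22 alternatives, FGA passed in 2 and AHSG in 1. Of 17 tested hepatocyte transcription factors and bile acid genes, 8 were below 0 and 9 above, and NR1I2, the pregnane X receptor, had -1.04 (adjusted p = 0.609). SLC51B, a subunit of a bile acid transporter, had mean levels of 9.74 CPM with DMSO, 0.349 with ABBV-075, 15.2 with IFNγ and 2.53 with both, and BAAT, which conjugates bile acids, 5.85, 0.435, 6.06 and 1.47 CPM. Both had 3 counts or fewer in every ABBV-075 library, so no fold change is given, and neither interaction passed (adjusted p = 0.573 and 0.723). Of 11 tested BET and P-TEFb genes, 5 were below 0 and 6 above, with BRD2 at -0.23 and LARP7, which holds P-TEFb inactive, at 0.87 (95% interval -0.28 to 2.02).

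**Figure D3:**
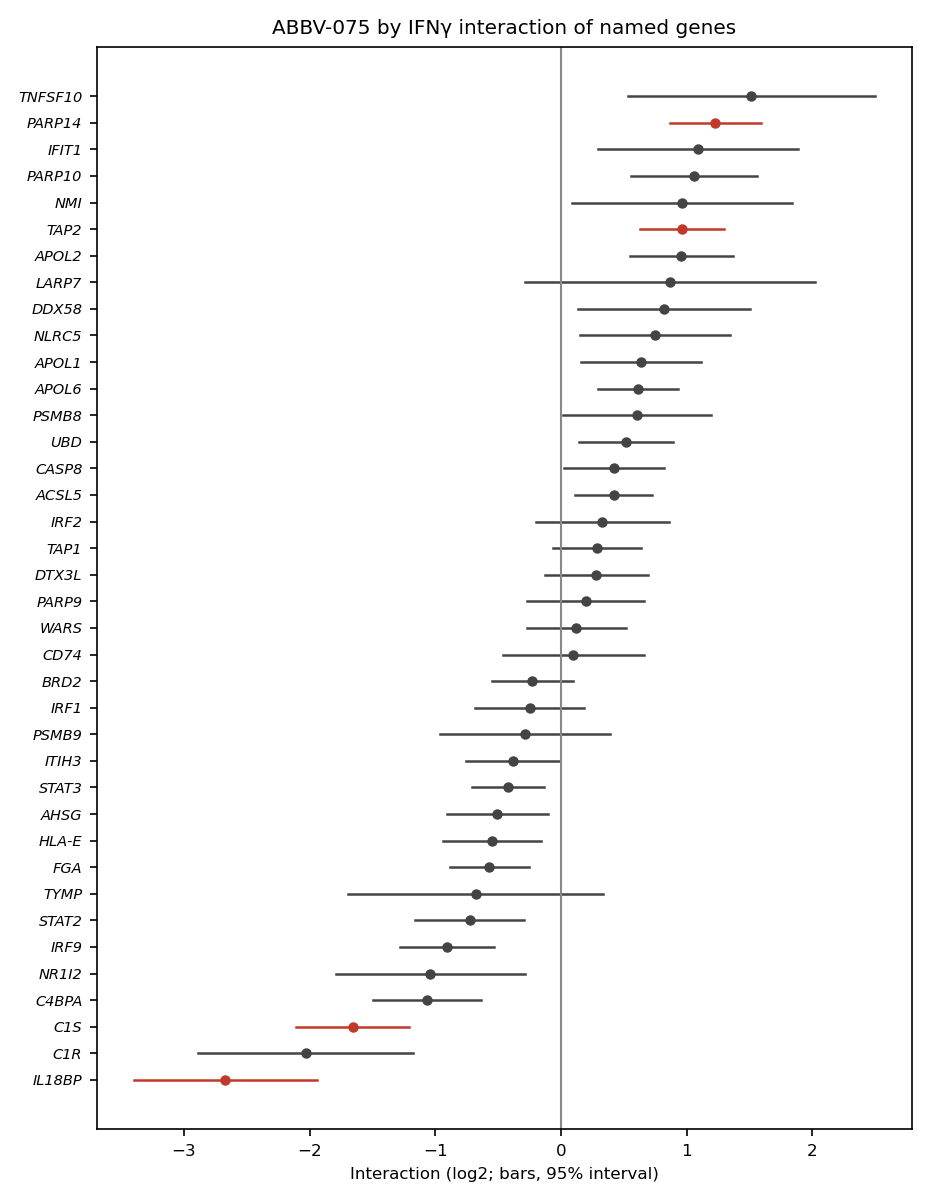
ABBV-075 by IFNγ interaction (x axis, log2) of 38 named genes with no group at the floor; points are the fitted values and bars the 95% interval, from 4 groups of 3 libraries. The 4 genes that passed are in red, from IL18BP (-2.67) and C1S (-1.66) to TAP2 (0.96) and PARP14 (1.23), and several others in grey have intervals off 0 but did not pass after adjustment.

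The treatments and libraries were checked with known genes and markers. HEXIM1, a gene known to rise under BET inhibition, was at 51.2 to 57.6 CPM with DMSO and 136 to 153 CPM with ABBV-075, and at 45.0 to 49.8 CPM with IFNγ and 128 to 139 CPM with both. GBP1, an IFNγ-induced GTPase, had a mean of 0.873 CPM with DMSO and 27.4 CPM with IFNγ. The summed hepatocyte markers were at 16484 to 23937 CPM in the 12 libraries, and of the 6 leukocyte markers PTPRC and CD3E had no count in any of them. Counts were found for CD14 at 1 to 22, CD68 at 30 to 86 and LYZ, a secreted lysozyme, at 3622 to 7873 per library. The summed leukocyte list was at 1643 to 1879 CPM without ABBV-075 and 1099 to 1336 CPM with it, mostly from LYZ, and its part in the results was not tested. The interaction of LYZ was -0.02 (95% interval -0.29 to 0.25). Each library held 3351138 to 4304103 counts on genes. Within the ABBV-075 group, correlations between the libraries' log2 CPM deviations were 0.17 to 0.81, against 0.78 to 0.88 in the other 3 groups. The median absolute deviation was 0.151 in ABBV-075 replicate 1 and 0.188 in its replicate 3, against at most 0.107 in the other libraries. Without ABBV-075 replicate 3, 3 genes passed in the negative and 10 in the positive direction, and without its replicate 1, 117 and 83 did. Both fits included the 4 genes. The slope of log2 level on GC content also differed among the ABBV-075 libraries, from -0.387 to -0.001 per 10 GC points relative to DMSO. With GC correction 11 and 16 genes passed, the 4 among them. The part of these library differences in the number of passing genes was not tested.

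The related inhibitor ABBV-744, which prefers the second bromodomain of BET proteins where ABBV-075 binds both, was given at the matched dose of 50 nM. The interactions of both inhibitors were computed against the same DMSO and IFNγ libraries, so they share these controls. With ABBV-744 at 50 nM the interaction was -1.95 for IL18BP (95% interval -2.66 to -1.24), -0.97 for C1S (-1.34 to -0.61), 1.56 for PARP14 (1.16 to 1.97) and -0.18 for TAP2 (-0.45 to 0.09). The difference between the inhibitors was tested once per gene in the 12 inhibitor libraries, in which those controls cancel. This was 1 pair of compounds, with p adjusted over 11380 genes. TAP2 differed: its IFNγ response was larger with ABBV-075 than with ABBV-744 by 1.17 on the log2 scale (SE 0.17, 95% interval 0.82 to 1.52, adjusted p = 0.00211). In CPM scaled over all 24 libraries, TAP2 was at 46.8, 50.0 and 50.8 with ABBV-744 alone and at 210, 192 and 199 with IFNγ added, whereas the ABBV-075 libraries were at 21.7, 27.9 and 26.5 and at 210, 224 and 238. The 2 compounds were thus apart before IFNγ and closer with it.

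C1S was held down further by ABBV-075 than by ABBV-744, by -0.66 (SE 0.24, 95% interval -1.16 to -0.15, adjusted p = 0.0434). With IFNγ, C1S was at 18.1, 16.0 and 19.6 CPM with ABBV-075 and at 53.5, 52.0 and 50.0 CPM with ABBV-744. Without IFNγ it was at 9.65, 13.8 and 11.4 CPM with ABBV-075 and at 16.7, 22.0 and 23.2 CPM with ABBV-744. This call did not pass without ABBV-075 replicate 2, ABBV-744 replicate 1 or 2, replicate 1 or 2 of IFNγ with ABBV-075, or any replicate of IFNγ with ABBV-744 (adjusted p between 0.0610 and 0.176). For IL18BP the difference was -0.69 (95% interval -1.47 to 0.08, adjusted p = 0.146), and for PARP14 it was -0.31 (95% interval -0.85 to 0.24, adjusted p = 0.362). Neither passed, and the intervals leave room for a difference of up to 2.77-fold and 1.81-fold. Without ABBV-744 replicate 1, the value of IL18BP passed at -1.02 (adjusted p = 0.0454).

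The background of this comparison was high. The IFNγ response differed between the inhibitors in 35.4% of the genes tested at an adjusted p of 0.05, 20.3% in the negative and 15.1% in the positive direction, so that the calls of TAP2 and C1S stand among many. Between libraries with and without IFNγ, 55.9% of the genes tested differed under ABBV-744 and 1.84% under ABBV-075 in the same fit. The sources used here do not say whether the ABBV-744 libraries with and without IFNγ were prepared together, and such a difference cannot be told apart from the IFNγ response in any ABBV-744 value given here. GC slopes relative to DMSO moved with this, at 0.141 to 0.368 with ABBV-744 alone and -0.377 to -0.347 with IFNγ and ABBV-744, and their part was not tested. With GC correction TAP2 kept its difference (1.14, adjusted p = 9.0e-05), C1S did not pass (-0.63, adjusted p = 0.0859), IL18BP passed (-1.14, adjusted p = 0.0416) and PARP14 turned to 0.11.

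At 500 nM ABBV-744, a dose that differs from that of ABBV-075, the interaction was -1.94 for IL18BP, -1.02 for C1S, 1.68 for PARP14 and 0.08 for TAP2. The PARP14 level was 391, 360 and 303 CPM with IFNγ and this dose, and 395, 375 and 360 CPM with IFNγ and ABBV-744 at 50 nM. No comparison across doses was made.

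**Figure D4:**
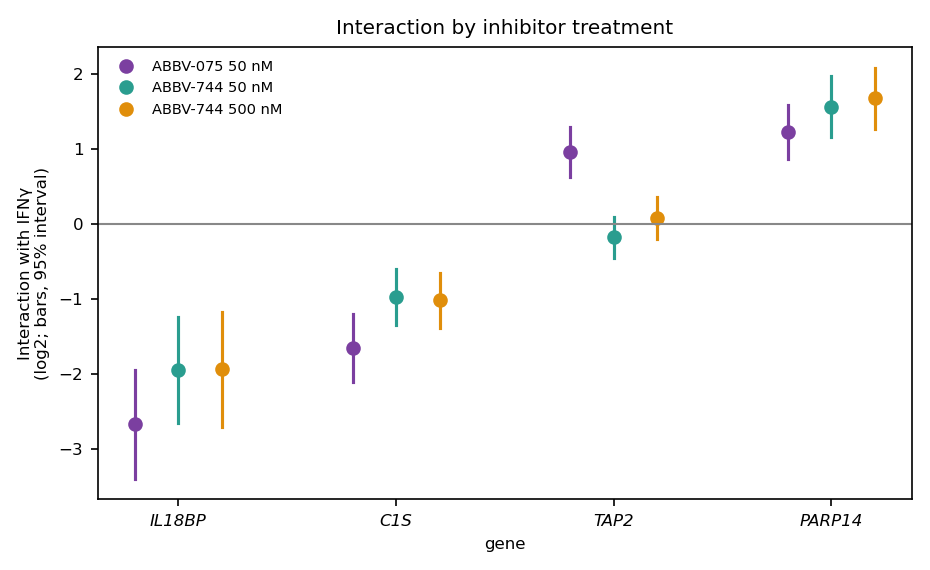
Interaction with IFNγ (y axis, log2) of the 4 genes for ABBV-075 at 50 nM and ABBV-744 at 50 and 500 nM; points are fitted values and bars 95% intervals, and all 3 treatments share the DMSO and IFNγ libraries. IL18BP and C1S are below 0 and PARP14 above 0 in all 3, and TAP2 is at 0.96 with ABBV-075 and at -0.18 and 0.08 with ABBV-744. With ABBV-744 the interaction passed for 26.5% of genes in the negative and 25% in the positive direction at 50 nM, and for 15% and 18.5% at 500 nM.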

How the data were processed

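RNA of HepG2 cells was sequenced after ribosomal RNA depletion as directional libraries. The authors trimmed reads with Trimmomatic 0.33 and aligned them to GRCh38 with STAR 2.7.1, and the deposited values are raw counts per gene symbol without normalization. Reads counted on the sense strand of each gene were taken. The annotation used for counting is not given in the sources used here. Symbols were paired with GENCODE v44 for positions.

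Counts of the 12 libraries were fitted in 1 model of 4 group means with edgeR 4.0.16 in R 4.3.3 (filterByExpr, TMM, quasi-likelihood test, Benjamini-Hochberg adjustment over all genes tested). A gene passed at an adjusted p of at most 0.05 and was called at an absolute log2 value of at least 1.5 as well, the study's thresholds. Standard errors were derived from the log2 value and its F statistic. The median standard error of an interaction was 0.25, and 0.34 among the genes below the median level. The steps were checked on simulated data. The difference to ABBV-744 was fitted in the 12 libraries of both inhibitors at 50 nM. CPM used TMM-scaled library sizes, and counting error only is covered by depth.

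Named genes were IL18BP, C1S and PARP14, genes that passed, up to 3 members of each gene list by smallest p, treatment checks, and C1R, C4BPA, PARP9, DTX3L, PARP10, TAP1, PSMB8, PSMB9, HLA-E, WARS and UBD, added after their values were seen, as were list members named without an interval. The genes and lists were chosen with earlier results of these data known. The deposited labels do not say whether the IFNγ replicates were separate cultures, and p-values then measure only the spread between these samples, which may be technical. Same-numbered libraries did not deviate together in every pair, so replicate numbers entered an alternative only. Alternatives were RLE or library-size scaling, other filters, DESeq2 1.42.0, all 24 libraries, a replicate block, both strands, GC correction and leaving out each library. A few list members are not reported here.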

Additional observations from a re-analysis of the deposited data

Results flagged for a closer look

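The IFNγ response differed between cells with and without ABBV-075, by the test of the interaction, for IL18BP (-2.67), C1S (-1.66), PARP14 (1.23) and TAP2 (0.96), all on the log2 scale. The IFNγ response differed between ABBV-075 and ABBV-744 at 50 nM for C1S (-0.66) and TAP2 (1.17). These are differences between groups with an adjusted p of at most 0.05 in edgeR's quasi-likelihood test. The interaction of TAP2 did not pass in 8 of 12 fits without 1 library. Between the inhibitors 35.4% of the genes tested differed, and a difference in library preparation cannot be told apart from the IFNγ response there. The difference of C1S between the inhibitors did not pass in 8 fits without 1 library or with GC correction.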

How the results depend on the processing

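IL18BP, C1S and PARP14 passed the interaction test in all 22 alternatives, between -2.89 and -2.48, -1.78 and -1.52, and 1.14 and 1.29. TAP2 passed in 14 of 22 (0.85 to 1.08, adjusted p up to 0.128). The fit with a replicate block passed the same 4 genes (2 in each direction); correlations of deviations between same-numbered libraries were -0.40 to 0.53 over 18 pairs. Among the 3 treated groups they were 0.39 to 0.53 for numbers 1 and 3 and -0.25 to 0.084 for number 2, and with DMSO they were -0.40 to 0.15. Over the 36 pairs of different number they were -0.59 to 0.44. Number 1 against number 3 among the treated groups gave -0.59 to -0.41. Numbers 1 and 3 thus each deviated together in the treated groups, but number 2 and the DMSO libraries did not. For that reason the numbers were not taken as a pairing in the main fit. Low counts and groups of 3 limit the interaction of genes at low levels. The cause of the changes below was not tested, except that a stricter filter tests fewer genes and that a call on p alone is wider by construction. Genes called in the interaction in the negative direction (2) numbered 4 without a filter, with DESeq2 and with GC correction, and in the positive direction (0) they numbered 4 without a filter, 1 with DESeq2, 3 with GC correction with and without the replicate block, and 2 on p alone. With at least 10 counts in every library, the genes called lower and higher were 149 and 61 for ABBV-075 without IFNγ (405 and 129), 208 and 166 for ABBV-075 with IFNγ (494 and 265), 0 and 45 for IFNγ without ABBV-075 (1 and 91) and 0 and 39 for IFNγ with it (2 and 85), and 20 were higher in the difference to ABBV-744 (285 and 68). On p alone these were 2571 and 2646, 3157 and 2802, 16 and 198, 77 and 182, and 2311 and 1714. Without a filter 200 genes were higher with ABBV-075, 3 lower with IFNγ and 4 lower with IFNγ under ABBV-075. The last count was 1 with RLE, DESeq2 and both strands. ABBV-075 with IFNγ gave 150 higher genes with GC correction and 151 with the block added. The difference to ABBV-744 gave 506 and 34 genes with library sizes only, 23 higher with DESeq2, 11 and 36 with GC correction, and 11 and 38 with the block added. Leaving out 1 library gave, lower and higher, 2 to 5 and 0 to 6 genes for the interaction (5 and 6 without ABBV-075 replicate 1), 400 to 485 and 114 to 241 for ABBV-075 without IFNγ (241 without ABBV-075 replicate 3), 493 to 536 and 244 to 316 with IFNγ, 0 to 4 and 87 to 97 for IFNγ without ABBV-075, 0 to 3 and 75 to 96 with it, and 54 to 599 and 46 to 121 for the difference to ABBV-744 (54 without ABBV-075 replicate 1, 599 and 121 without its replicate 3, 558 and 113 without ABBV-744 replicate 1 and 2, 119 without replicate 1 of IFNγ with ABBV-075). Directions turned when 1 library was left out for CD74 (-0.14 to 0.37; -0.14 without ABBV-075 replicate 1 and -0.016 without IFNγ replicate 1), PSMB9 (-0.52 to 0.33, the latter without ABBV-075 replicate 1), WARS (-0.051 to 0.32, the former without the same library), TYMP (-1.0 to 0.026, the latter without ABBV-075 replicate 3) and the IFNγ response of IL18BP with ABBV-075 (-0.056 to 0.28; -0.056 without ABBV-075 replicate 1 and -0.031 without replicate 2 of the combination). The difference of PARP14 to ABBV-744 turned to 0.11 with GC correction, with and without the block.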

Other observations

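Small noncoding RNAs had mostly positive interactions, a pattern noticed in the data and outside the gene lists. Of 145 tested genes whose symbols begin with SNORA, SNORD or RNY, 95 were above 0 and 50 below, with a median of 0.22 against -0.03 over all genes tested. At an unadjusted p under 0.05, 22 were higher (15.2%, against 2.09% of all genes) and 3 lower. The class was chosen by this pattern, so these shares describe it and do not test it. Whether these genes moved together by library was not tested. The Y RNA gene RNY1 had 1.13 (SE 0.26) and the small nucleolar RNA gene SNORA10 1.23 (SE 0.28), and neither passed in the edgeR fit of the report. Both passed with DESeq2, with GC correction and without ABBV-075 replicate 3, the library with the largest median absolute deviation. Among secreted liver products outside the lists, PLA2G2A, a secreted phospholipase, had -1.74 (SE 0.38) and SERPIND1, heparin cofactor II, -0.65 (SE 0.15). Neither passed in the edgeR fit of the report, and both passed with GC correction and without a filter on low counts, PLA2G2A also with DESeq2.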
